A study of Mus musculus with 3 samples.

Results

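The genes described here were Slpi, which encodes secretory leukocyte peptidase inhibitor, and 6 genes tied to it by structure or by binding. They were Wfdc2, a relative with the same kind of domain, Elane and Ctsg, proteases that Slpi protein inhibits, Grn, which encodes the progranulin that Slpi protein protects from cleavage, and Plscr1 and Anxa2, which encode membrane proteins that bind it. They were chosen by name, and every probe whose transcript accession matched one of the 7 symbols was taken. This gave 11 of the 56605 gene probes of the array and 7 of its 22908 genes with a symbol. Expression was measured in Hepa1c1c7 cells, an established mouse hepatoma line, after transfection with one of 3 vectors, called empty vector, Mst1r vector and Slpi vector. The empty vector was pCMV6-Kan/Neo, and the other vectors held the open reading frame of Mst1r, a receptor tyrosine kinase, or of Slpi. Total RNA of each culture (100 ng) was labelled with Cy3 and hybridised to 1 single-colour Agilent SurePrint G3 Mouse array, so that each of the 3 groups was 1 array. The study used these arrays to ask which genes follow an increase of Mst1r or Slpi in hepatoma cells.

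Slpi protein is a small secreted inhibitor of serine proteases. It is built of WAP domains, named after whey acidic protein, which are compact folds held together by disulfide bonds. Epithelia and neutrophils release it, and it blocks neutrophil elastase and cathepsin G. By binding progranulin it keeps elastase from cutting that growth factor into granulin peptides. Phospholipid scramblases move lipids between the leaflets of the plasma membrane, and annexin A2 is a calcium-dependent membrane protein that also holds plasminogen and its activator at the cell surface. The study turned to Slpi through DNA methylation in mouse liver tumours.

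Signals are given as processed signal, the background-subtracted and detrended spot intensity of the scanner software, which is not scaled between arrays. A log2 difference was taken after subtracting the 75th percentile of each array, which was 268 for empty, 229 for Mst1r and 254 for Slpi vector. The error after a difference combines, for the 2 arrays compared, the SD that repeated spots of 1 array gave at that signal. It does not cover the spread between cultures. A group of 1 array allows no test, so that no p-value is given and each difference is one between 2 arrays. Levels were compared between arrays for the same probe, and signals of different probes were set in order only to choose which genes to name. Neither transfected gene stood out on its own array. The Mst1r probe stayed at background throughout, and Slpi is described next. The study reports overexpression of Mst1r in transfected Hepa1c1c7 cells by real-time PCR, so the Mst1r probe alone does not show that the transcript was absent. Where on the transcript the probes lie, and whether the vector transcripts carry those bases, was not determined here, so the arrays are named by their labels. Of 10 hepatoma cell markers 8 were well above background on at least 1 array, among them Afp and Alb, whereas Apob and Hnf4a were not above it on any array.

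Of the 7 genes, 6 were well above background on all 3 arrays and had a signal over 50, and Ctsg was not above background on any array. Few of them differed between the arrays. Against empty vector, Wfdc2 was 1 gene of 6 that stood 1.5-fold or more higher with Mst1r vector, while 4.97% of all 12063 genes passing the same signal minimum were. None of the 6 was 1.5-fold lower there (4.05% of all genes), and Wfdc2 also passed 2-fold (5.53% of all genes in either direction). It fell short of 2-fold without scaling (log2 difference 0.80), with spike-in scaling (0.92) and with the normexp background correction (0.68). With Slpi vector, Wfdc2 was again the 1 gene of 6 that was 1.5-fold higher than with empty vector (2.35% of all 11976 genes), none was lower (2.53%) and none passed 2-fold (3.93%). Between Mst1r vector and Slpi vector, Slpi was the 1 gene at least 1.5-fold lower with Mst1r vector (3.92% of all 11949 genes), none was higher (5.00%) and none passed 2-fold (5.02%). No member reached 10-fold, the fold used for gene selection in the study. The median log2 difference of the 6 genes was 0.05 for Mst1r and -0.01 for Slpi vector, against -0.05 and 0.01 over all genes. A count of 1 among 6 is too small to set these genes apart from the background shares.

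**Figure D1:**
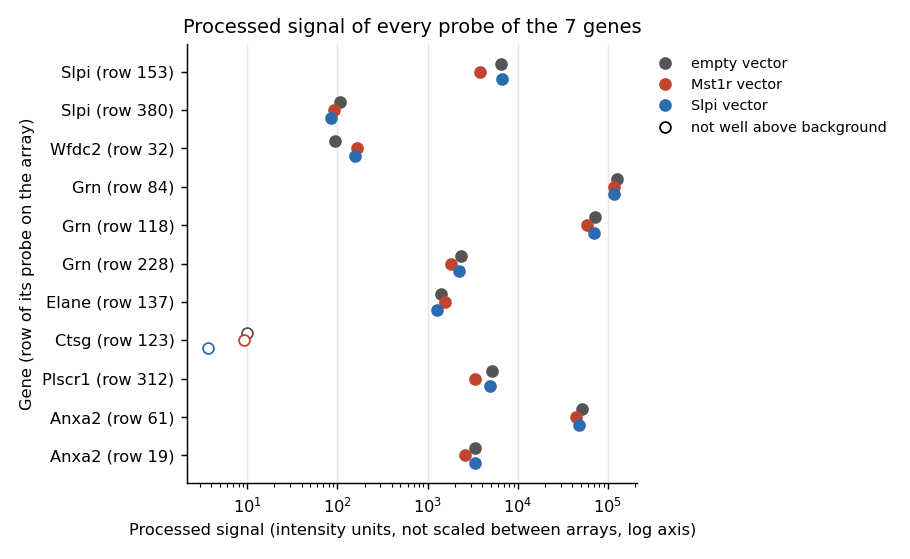
Processed signal (intensity units, log axis) of each of the 11 probes on the empty vector, Mst1r vector and Slpi vector arrays, with open circles for values not well above background. The Mst1r vector point of the brighter Slpi probe and of Plscr1 lies to the left of the other arrays, the empty vector point of Wfdc2 lies to the left, and all points of Ctsg are open.

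Slpi (NM_011414) was measured by a pair of probes that did not give the same order of the arrays. The brighter probe, in row 153 of the array, read 6459 for empty, 3843 for Mst1r and 6680 for Slpi vector. The empty vector and Slpi vector arrays were therefore close, and the Mst1r vector array was the low one. The log2 difference between Slpi vector and empty vector was 0.13 ± 0.13, a 1.09-fold difference that is within the spread between spots. Of 11659 genes over 50 on the brighter array and well above background on both arrays, 15.7% were higher. Shares of genes higher, lower or further from 0 than a named gene are over genes filtered in this way throughout. With Mst1r vector Slpi was 1.43-fold lower than with empty vector, at -0.52 ± 0.13, and 3.35% of 11699 genes were lower still. Against Slpi vector it was 1.56-fold lower, at -0.65 ± 0.13. The dimmer probe, in row 380, gave 106, 91.7 and 85.8 on the empty vector, Mst1r vector and Slpi vector arrays. On this probe the order of the arrays was another, with the Slpi vector array lowest. Its log2 differences from empty vector were 0.02 ± 0.27 for Mst1r and -0.23 ± 0.27 for Slpi vector, each within the spread between spots. Between Mst1r vector and Slpi vector it differed by 0.25 ± 0.27, also within that spread and opposite in sign to the bright probe. The 0.02 of the dim probe and the -0.52 of the bright probe with Mst1r vector lay further apart than the error of either alone. The error of that gap, which combines both, is larger and was not computed. No spot was saturated on any array.

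The sign of the small difference between Slpi vector and empty vector depended on the processing. It was -0.10 when the arrays were scaled to the spike-in controls and -0.05 when both probes were averaged. The lower value with Mst1r vector kept its sign under each alternative run, from -0.75 without scaling to -0.25 with the mean of both probes.

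**Figure D2:**
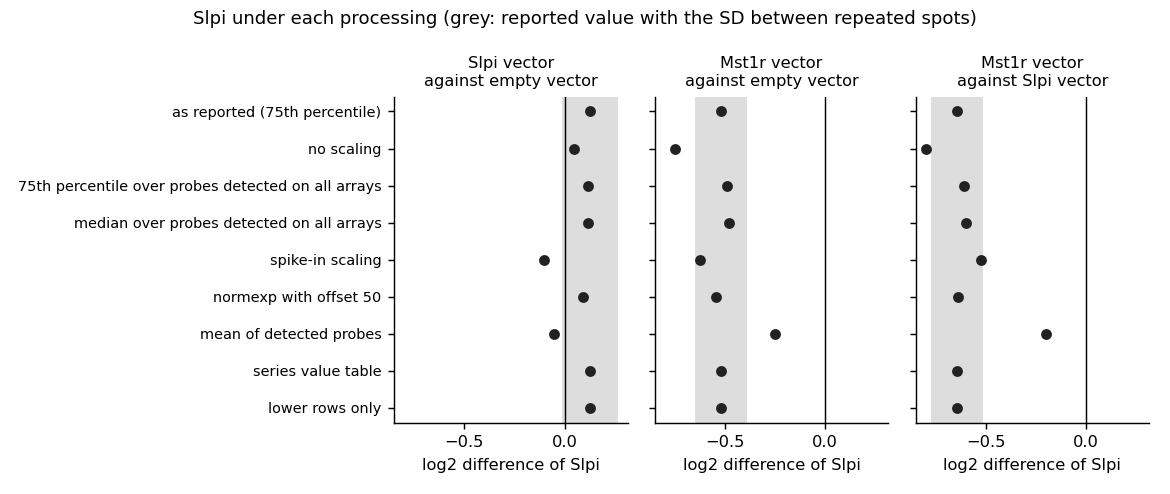
Log2 difference of Slpi (horizontal axis) under each processing alternative (vertical axis) in the 3 comparisons, with the reported value and its error from repeated spots in grey. Points lie on either side of 0 for Slpi vector against empty vector, and left of 0 in the comparisons of Mst1r vector.

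The promoter of Slpi is shown because the study came to this gene through DNA methylation, which acts on CG pairs. The window runs from 250 bases before to 50 bases after the transcript start in RefSeq (GRCm38.p6), and CG pairs are in capitals. The differentially methylated region that the study reported for Slpi lies downstream of this window. The CG pairs marked here are therefore not the sites of that region.
Slpi, chr2:164356458-164356757, minus strand: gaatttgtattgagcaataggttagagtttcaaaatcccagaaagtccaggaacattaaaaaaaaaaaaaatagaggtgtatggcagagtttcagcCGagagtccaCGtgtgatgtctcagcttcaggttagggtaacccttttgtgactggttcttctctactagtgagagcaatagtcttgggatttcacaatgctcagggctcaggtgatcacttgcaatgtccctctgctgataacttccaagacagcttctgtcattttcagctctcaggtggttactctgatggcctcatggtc
It holds 2 CG pairs, at positions -154 and -144 from the start. The median over 27025 promoters of this length was 7, and 14.8% held fewer than Slpi. The other 6 genes held between 6 (Elane) and 16 (Wfdc2) CG pairs, so that Slpi had the fewest of the 7. Methylation was not measured on these arrays.

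Wfdc2 (NM_026323), a secreted WAP-domain protein of epithelia also known as HE4, had the largest difference of the 7 genes. Its single probe, in row 32, gave 95.2 for empty, 165 for Mst1r and 157 for Slpi vector. The empty vector array was the low one, and the other arrays were close to each other. Relative to empty vector Wfdc2 was 2.04-fold higher with Mst1r vector, with a log2 difference of 1.03 ± 0.27, and 1.74-fold higher with Slpi vector, with 0.80 ± 0.27. The comparisons share the empty vector array, and between Mst1r vector and Slpi vector the difference was 0.23 ± 0.27. Of all genes 1.87% were higher than Wfdc2 for Mst1r and 0.883% for Slpi vector.

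The place of the Wfdc2 probe on the array and its low signal bear on these values. In the upper rows of the array, which held 33.7% of the gene probes and that of Wfdc2, control spots without a target that were dark on the other arrays at times gave stray signal. Of these, 8 of 757 on the empty vector array (1.06%, exact 95% interval 0.457 to 2.07), 3 of 736 on the Mst1r vector array (0.408%, 0.0841 to 1.19) and 0 of 717 on the Slpi vector array (exact upper limit 0.513%, or 0.418% by the rule of 3 counts) were at least as bright as Wfdc2 was there. These intervals cover counting error only. Of 1074 genes in the upper rows with a mean signal between 50 and 300, 18.9% were at least 1.5-fold apart between Mst1r vector and empty vector and 12.1% between Slpi vector and empty vector. In the lower rows the shares among 1905 such genes were 10.4% and 1.42%. Among the 24 spots within 2 rows and 2 columns of Wfdc2, none on the Mst1r vector or Slpi vector array had a signal over 50 while under 15 on the other arrays, and 1 on the empty vector array did. The part of stray signal in the difference of Wfdc2 was not tested.

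**Figure D3:**
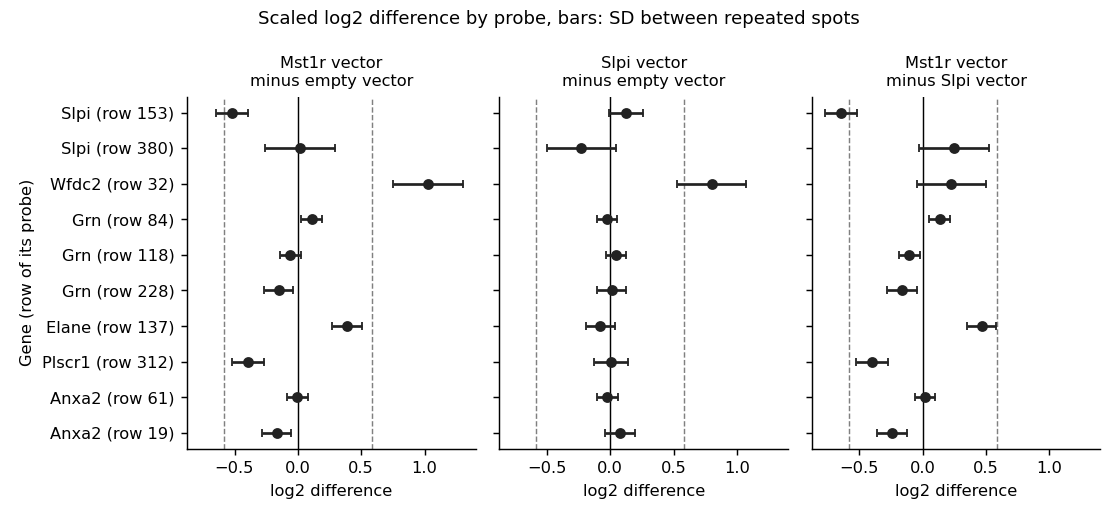
Scaled log2 difference (horizontal axis) of the 10 detected probes (vertical axis) in the 3 comparisons, with bars for the error from repeated spots and dashed lines at 1.5-fold. Wfdc2 lies right of 0 in both comparisons with empty vector, the brighter Slpi probe and Plscr1 lie left of 0 and Elane right of 0 in both comparisons of Mst1r vector, and the other Slpi vector differences lie between -0.23 and 0.13.

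Most of the wider WAP-domain family gave little signal in these cells. All 23 listed genes had a probe, 13 were well above background on at least 1 array and 9 on all 3, and 6 had a signal over 50, namely Slpi, Wfdc2, Wfdc3, Wfdc12, Wfdc13 and Wfikkn1. Against empty vector, Wfdc3 and Wfikkn1 passed this minimum only through arrays on which they were high. The same held for Wfdc12 in the comparison with Mst1r vector, so no count or median over the family is given. Wfdc13 gave 1354 for empty, 1023 for Mst1r and 1333 for Slpi vector, and differed by -0.17 ± 0.13 and 0.06 ± 0.12. Wfdc12 gave 56.0, 26.1 and 62.8 in the same order, low with Mst1r vector. Its difference there was -0.87 ± 0.54, and it passed the minimum of 50 in that comparison only through the empty vector array.

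Wfdc3 had the largest difference with Slpi vector among the 6 genes over 50, a place that the minimum helped to fix. Its probe in row 297 gave 49.3 for empty, 33.8 for Mst1r and 254 for Slpi vector, and differed by 2.44 ± 0.38 with Slpi vector. The other Wfdc3 probe, of the same transcript in row 306, gave 25.7, 34.2 and 27.1 and differed by 0.16 ± 0.61, so the probes disagreed. Wfikkn1, in row 69, gave 32.0, 54.5 and 51.4, an order of arrays like that of Wfdc2. Its differences from empty vector were 1.0 ± 0.54 and 0.76 ± 0.54, at signals close to the minimum of 50.

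**Figure D4:**
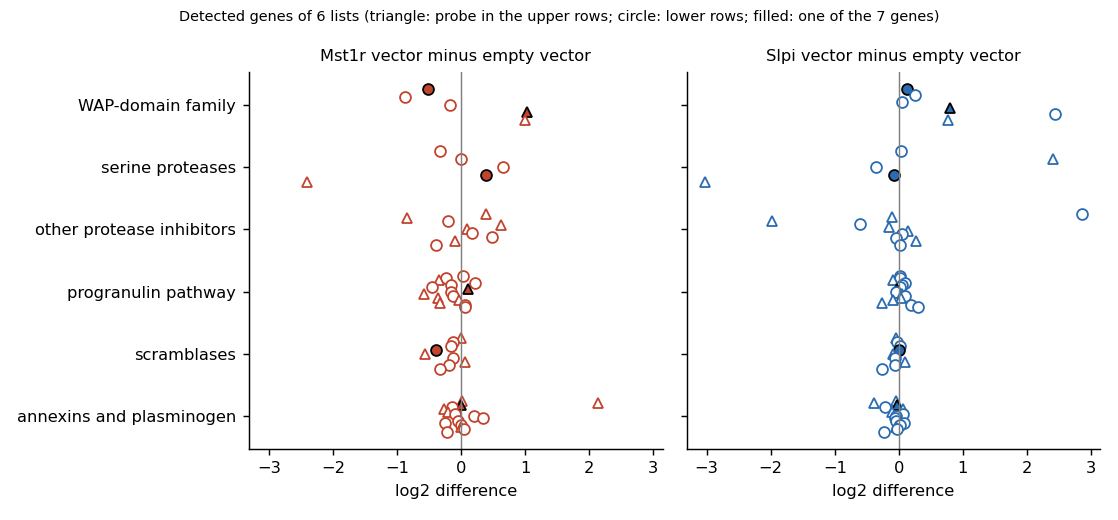
Log2 difference from empty vector (horizontal axis) of the detected genes of 6 lists (vertical axis), with Mst1r vector on the left and Slpi vector on the right, triangles for probes in the upper rows, circles for the lower rows, filled symbols for the 7 genes. The progranulin, scramblase and annexin lists lie between -0.38 and 0.29 with Slpi vector, while single genes of the WAP-domain, protease and inhibitor lists lie more than 2 log2 units away.

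Among the target proteases, Elane was detected and Ctsg was not. Elane (NM_015779), neutrophil elastase, gave 1405 for empty, 1568 for Mst1r and 1261 for Slpi vector on its single probe in row 137. The Mst1r vector array was the high one. Elane was 1.31-fold higher with Mst1r vector than with empty vector, with a log2 difference of 0.39 ± 0.12, and 1.38-fold higher than with Slpi vector, with 0.47 ± 0.12. With Slpi vector the difference from empty vector was -0.08 ± 0.12, within the spread between spots. Of all genes, 6.34% were higher than Elane with Mst1r vector, and the sign of its difference was the same under each alternative run, from 0.16 to 0.43. Alternatives that keep this single probe, its intensity and the scaling could not move it. Ctsg (NM_007800), cathepsin G, read 9.97, 9.13 and 3.62, stayed at background throughout and is given no fold.

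Elane is a gene of neutrophil precursors, and the markers of neutrophils and monocytes were therefore set beside it. Of 12 listed markers 11 had a probe, and Mpo, Ltf, Camp and Ptprc were not above background on any array. Those over 50 were Csf1r, Itgam, Cd14 and S100a9. Csf1r, a receptor of the monocyte lineage, gave 2825 for empty, 3293 for Mst1r and 2726 for Slpi vector. Its difference of 0.45 ± 0.12 with Mst1r vector was close to that of Elane. Itgam, an integrin subunit, gave 1915, 2063 and 1894 and differed by 0.34 ± 0.12 with Mst1r vector. Cd14 gave 1119, 858 and 1157 and differed by -0.15 ± 0.13 with Mst1r vector, the direction opposite to Elane. Its second probe differed by -0.28 ± 0.14 there. The summed signal of the list, not scaled between arrays, was 5989, 6359 and 5917, highest on the Mst1r vector array as for Elane. Most of this sum came from Csf1r and Itgam, so it does not describe the list as a whole. S100a9, in row 72 at signals of 37.3, 38.4 and 66.4, differed by 0.91 ± 0.38 with Slpi vector, the array through which it passed the minimum. In bulk RNA, fewer cells of a type and less RNA per cell cannot be told apart. Mpo, a granule enzyme of neutrophils, and Ptprc, the common antigen of leukocytes, define these cells. Mpo read 8.73, 17.6 and 10.96 and Ptprc 3.81, 3.77 and 3.33 on the empty, Mst1r and Slpi vector arrays, each not well above background. S100a8, a calcium-binding protein of neutrophils, read 7.62, 45.9 and 18.1 and was well above background on the Mst1r vector array alone. The part of other cells in the Elane signal was not tested.

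Of 14 leukocyte and pancreatic serine proteases 13 had a probe and 6 were over 50. Some of these passed 50 only on an array where they were high, so no median is given. Cela1, a pancreatic type of elastase, gave 3667 for empty, 2497 for Mst1r and 3566 for Slpi vector. It was lower with Mst1r vector (-0.32 ± 0.12), whereas Elane was higher. The mast cell protease gene Mcpt4, in row 65, gave 57.5, 9.26 and 6.72 and was well above background with empty vector alone. This left it at least 2.61-fold lower for Mst1r vector, and 3.29-fold for Slpi vector, with the dim side set to the lowest signal that was well above background on that array. These bounds rest on 1 spot in the upper rows, where control spots strayed. Cma1, another protease of the list, in row 25, gave 35.6, 6.98 and 179. It differed by 2.41 ± 0.38 with Slpi vector, the array through which it passed the minimum and the direction opposite to Mcpt4. On the Mst1r vector array Cma1 was not well above background.

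Other inhibitors of serine proteases lay on both sides of 0. Of 15 listed genes 10 were detected. With Mst1r vector 1 was at least 1.5-fold higher (4.97% of all genes) and 1 lower (4.05%). The higher one was Serpinb1a, which gave 3936 for empty, 5156 for Mst1r and 3338 for Slpi vector. It differed by 0.62 ± 0.13 with Mst1r vector and -0.16 ± 0.12 with Slpi vector. Serpinb6a, an intracellular inhibitor that binds cathepsin G, gave 27941 for empty, 25281 for Mst1r and 29200 for Slpi vector, and differed by 0.09 ± 0.08 and 0.14 ± 0.08. Spint2, a membrane-bound inhibitor, gave 1384, 895 and 1331 on its brighter probe. This probe differed by -0.40 ± 0.13 and 0.02 ± 0.12, an order of arrays near that of the bright Slpi probe. The other Spint2 probe, in row 278, gave 1137, 958 and 1033 and differed by -0.02 ± 0.13 and -0.06 ± 0.12. The probes thus disagreed with Mst1r vector. Itih4, a liver plasma protein, had a probe in row 281 with 23.5, 21.3 and 161 and a difference of 2.85 ± 0.47 with Slpi vector, the array through which it passed the minimum of 50. Its second probe was not above background on any array. Serpina1c, an alpha-1 antitrypsin gene in row 35, gave 62.1, 29.4 and 14.98 and differed by -0.85 ± 0.54 with Mst1r vector. It passed the minimum only through the empty vector array. Its near-identical paralogs may share its probe.

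Grn (NM_008175), progranulin, was stable across the arrays on each of its 3 probes. The probe in row 84 gave 125991 for empty, 115857 for Mst1r and 117290 for Slpi vector. That in row 118 gave 72652, 59462 and 71065, and that in row 228 gave 2359, 1809 and 2251. Before scaling the empty vector array was highest on every probe, as was its 75th percentile. After scaling, the log2 difference with Mst1r vector was 0.11 ± 0.08, -0.06 ± 0.08 and -0.15 ± 0.12 for the probes in this order, so that even its sign differed between probes. With Slpi vector it was -0.03 ± 0.08, 0.05 ± 0.08 and 0.01 ± 0.12, each within the spread between spots. Of all genes 57.5% were further from 0 than the brightest Grn probe for Mst1r and 83.0% for Slpi vector.

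The genes around progranulin were all expressed. Each of 15 listed receptors, lysosomal proteins and processing enzymes was well above background on the 3 arrays. None was 1.5-fold apart in either comparison with empty vector, where 9.03% of all genes were for Mst1r and 4.88% for Slpi vector. With so few genes, this does not set the list apart from those shares. With Mst1r vector their median was -0.15, with 5 of 15 over 0, near the 38.8% of all genes. With Slpi vector it was 0.02, with 10 of 15 over 0 (52.3% of all genes). Without scaling all 15 were under 0 with Mst1r vector, and with spike-in scaling 14 were under 0 with Slpi vector, so these counts moved with the scaling. Lrp1, an endocytic receptor that takes up the partner protein prosaposin, gave 1379 for empty, 786 for Mst1r and 1347 for Slpi vector. It was low on the Mst1r vector array, with a difference of -0.58 ± 0.13, as was the bright Slpi probe. Sort1, the sortilin receptor that takes up progranulin, gave 2318, 1538 and 2242 and differed by -0.36 ± 0.12 with Mst1r vector. Lamp1, a lysosomal membrane protein, differed by -0.15 ± 0.08 for Mst1r and -0.04 ± 0.08 for Slpi vector. Tnfrsf1b, a tumour necrosis factor receptor, had the largest difference of the list with Slpi vector, at 0.29 ± 0.27.

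Plscr1 (NM_011636), phospholipid scramblase 1, was lower with Mst1r vector. Its single probe, in row 312, gave 5215 for empty, 3380 for Mst1r and 4958 for Slpi vector. The empty vector and Slpi vector arrays were close, and the Mst1r vector array was the low one, the same order as for the bright Slpi probe except for the top place. The log2 difference with Mst1r vector was -0.40 ± 0.13, which is 1.32-fold lower, and 6.15% of all genes were lower. It kept its sign under each alternative run, from -0.63 to -0.36, though alternatives that keep this probe, its intensity and the scaling could not move it. With Slpi vector the difference was 0.01 ± 0.13, and 96.6% of all genes were further from 0. Between Mst1r vector and Slpi vector it was -0.40 ± 0.13.

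Of 16 listed scramblases and flippase subunits 9 were detected, Plscr1 among them. None was 1.5-fold apart from empty vector, where 9.03% of all genes were for Mst1r and 4.88% for Slpi vector. Of the other 8, 1 was over 0 with Mst1r vector, as were 38.8% of all genes. The median was -0.15 for Mst1r and -0.04 for Slpi vector. Plscr2, a close relative of Plscr1, gave 889 for empty, 513 for Mst1r and 794 for Slpi vector, and had the largest difference with Mst1r vector, at -0.56 ± 0.14. Plscr3, the mitochondrial member, differed by -0.13 ± 0.13 and -0.06 ± 0.13 with Mst1r vector and Slpi vector. Ano6, the calcium-activated scramblase of platelets, differed by -0.01 ± 0.13 and -0.04 ± 0.13. Xkr8, a scramblase of dying cells, differed by -0.34 ± 0.27 and -0.26 ± 0.27. Plscr4 was the 1 detected member over 0 with Mst1r vector, at 0.06 ± 0.14. Of the same 8, 2 were over 0 with the scaling to the median or to the 75th percentile of detected probes, and 0 without scaling or with spike-in scaling.

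Plscr1 is known as a gene that interferon induces, and its value was set beside those of other such genes. Of 16 listed genes 15 had a probe, and all 15 were detected. With Mst1r vector the other 14 were over 0, as were 38.8% of all genes, from 0.12 to 1.79 with a median of 0.44, and Plscr1 was the lowest of the 15. It stood at -0.84 (log2) from the median of the others, a distance that no scaling changes. Ifit3, an antiviral protein, had the largest difference and gave 462 for empty, 1365 for Mst1r and 389 for Slpi vector. Isg15, a ubiquitin-like modifier, gave 16427, 20149 and 13793 and differed by 0.52 ± 0.08 with Mst1r vector. Oas1a, an RNA-sensing synthetase, differed by 0.26 ± 0.08. Without scaling 13 of the other 14 were over 0, Parp14 being the exception, and with every other scaling 14 were. Of the 15 genes 4 were at least 1.5-fold higher, where 4.97% of all genes were.

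With Slpi vector the list had a median of -0.11 and none was 1.5-fold apart, where 4.88% of all genes were. Plscr1 was the 10th of 15 from the lowest. Rsad2, an antiviral enzyme, gave 342 for empty, 906 for Mst1r and 258 for Slpi vector, and had the largest difference with Slpi vector, at -0.33 ± 0.14. In the comparison that leaves out the empty vector array, Mst1r vector against Slpi vector, Plscr1 was again the lowest of the 15, at -0.40 against a lowest value of 0.06 among the others. That comparison shares the Mst1r vector array with the first.

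**Figure D5:**
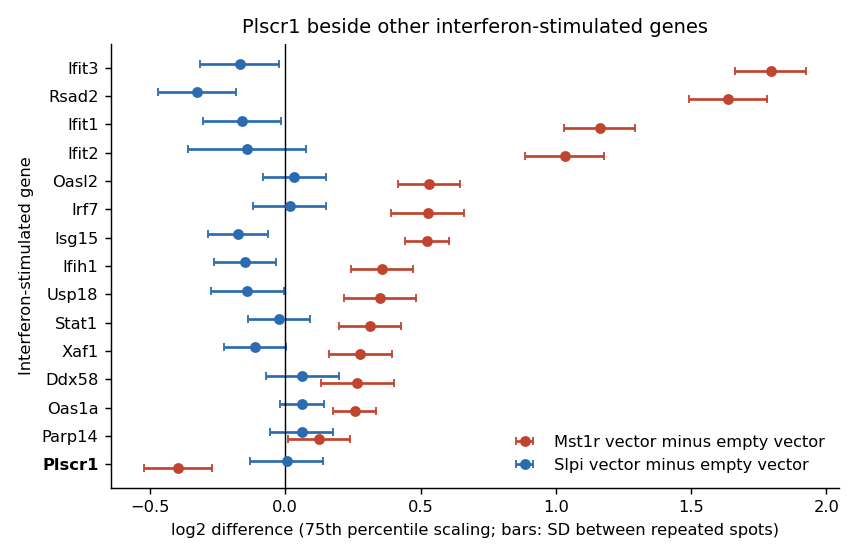
Log2 difference from empty vector (horizontal axis) of 15 interferon-stimulated genes (vertical axis) for the Mst1r and the Slpi vector, with bars for the error from repeated spots. With Mst1r vector Plscr1 lies at -0.40 and the other 14 genes lie right of 0, and with Slpi vector all 15 lie between -0.33 and 0.06.

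The promoters of Plscr1 and Ifit3 are set side by side to show whether the letters of an interferon-stimulated response element stand near the start. The letters searched were GAAANNGAAA on either strand, in the same RefSeq windows (GRCm38.p6), and matches are in capitals.
Plscr1, chr9:92249944-92250243, plus strand: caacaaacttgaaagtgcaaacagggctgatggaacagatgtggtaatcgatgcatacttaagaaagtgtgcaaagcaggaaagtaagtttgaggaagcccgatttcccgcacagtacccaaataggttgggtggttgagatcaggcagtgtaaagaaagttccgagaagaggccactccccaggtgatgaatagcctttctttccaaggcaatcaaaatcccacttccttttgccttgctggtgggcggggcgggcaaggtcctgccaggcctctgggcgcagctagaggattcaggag
Ifit3, chr19:34583279-34583578, plus strand: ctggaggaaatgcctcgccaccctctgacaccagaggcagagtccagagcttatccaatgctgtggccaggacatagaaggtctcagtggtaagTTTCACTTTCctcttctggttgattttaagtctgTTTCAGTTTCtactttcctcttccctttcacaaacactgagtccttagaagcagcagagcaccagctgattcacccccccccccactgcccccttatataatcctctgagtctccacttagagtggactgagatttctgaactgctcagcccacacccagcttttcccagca
The Ifit3 window held 2 matches, which begin at positions -156 and -122, and the Plscr1 window held none. A match was found in 7 of the 12 interferon-stimulated genes with a promoter in the table (Ddx58, Ifih1, Ifit1, Ifit3, Isg15, Oas1a and Rsad2), in 0 of the 7 genes described here and in 3.52% of the 27025 promoters. The absence of these letters from a window of 300 bases says nothing of elements elsewhere or of other letters.

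Anxa2 (NM_007585), annexin A2, was the most even of the 7 genes on its brighter probe. This probe, in row 61, gave 51883 for empty, 44106 for Mst1r and 48404 for Slpi vector. After scaling it differed from empty vector by -0.0041 ± 0.08 for Mst1r and -0.02 ± 0.08 for Slpi vector, and 98.1% of all genes were further from 0 with Mst1r vector. The second probe, in row 19, gave 3397, 2580 and 3391. It was lowest with Mst1r vector, with a difference of -0.17 ± 0.12, and differed by 0.08 ± 0.12 with Slpi vector. Of the 24 spots within 2 rows and 2 columns of this probe, 7 on the Slpi vector array had a signal over 50 while under 15 on the other arrays.

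Of 19 annexins and genes of the plasminogen system 15 were detected, with medians of -0.0041 for Mst1r and -0.04 for Slpi vector. S100a10, the light chain that binds annexin A2, gave 18592 for empty, 16275 for Mst1r and 17288 for Slpi vector, and differed by 0.04 ± 0.11 and -0.03 ± 0.08, as even as Anxa2. Anxa1, a relative with anti-inflammatory roles, differed by 0.02 ± 0.08 and -0.04 ± 0.08 on its brighter probe and by -0.12 ± 0.08 and -0.34 ± 0.08 on its other probe, so that the probes disagreed with Slpi vector. Anxa8, another family member, was higher with Mst1r vector (0.35 ± 0.12), and Anxa4 (-0.27 ± 0.13), Anxa5 (-0.21 ± 0.08), Plat (-0.25 ± 0.14) and S100a11 (-0.22 ± 0.13) were lower. With Slpi vector Anxa3 (-0.21 ± 0.11) and S100a11 (-0.23 ± 0.13) were lower. The 1 gene past 1.5-fold, where 4.97% of all genes were higher with Mst1r vector, was Anxa11, a relative involved in vesicle and granule transport, which gave 76.7, 287 and 55.8. It was high on the Mst1r vector array alone, at 2.14 ± 0.22, and with Slpi vector it differed by -0.38 ± 0.38. Its probe lay in row 31, next to the row of Wfdc2 and at a signal of the same order.

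The genes whose values were most like those of the 7 were sought by the distance between their log2 differences from empty vector, over the 3 arrays and 11485 genes. For Slpi they were P2rx5 (distance 0.012), Plek2 (0.013) and Sbsn (0.016), and 72 genes lay within 0.1. Each of these was about as low as Slpi with Mst1r vector, between -0.53 and -0.52. For Wfdc2 no gene lay within 0.1, and the nearest were Gm32117 (0.17), Kifc1 (0.21) and Gm33224 (0.21). For Plscr1 the nearest were Gclc, Rtn2 and Nme4 among 362 within 0.1, and for Elane Ap5m1, Snap23 and Col6a1 among 126. Grn had 1305 genes within 0.1, Mthfd2, Hcfc2 and Ppp1r15b being nearest, and Anxa2 had 2374, with Manea, Npm1 and Ryk. With 3 arrays such likeness is a description of these values alone.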

How the data were processed

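The deposited files held spot intensities of 3 single-colour arrays, 1 each for empty vector, Mst1r vector and Slpi vector. The authors read them from the scans with Agilent Feature Extraction 12.0.3.1, per the file headers, as processed signal, background-subtracted and spatially detrended, on an array design of build mm9. The deposited files also gave other columns used here, which flag spots as well above background, saturated or outlying. The deposited series table held the same intensity per probe without scaling.

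Here, spots of the same probe were averaged on the log2 scale after control and outlier spots were left out, and the 75th percentile over all gene probes of the array was subtracted, as the methods state. Probes were named through RefSeq transcript accessions (GRCm38.p6, names only), which gave 32994 of 56605 probes a symbol, and a gene was represented by its brightest probe. A gene was compared when the brighter of its 2 signals passed 50, the minimum of the methods. Differences were counted at 1.5-fold, 2-fold and 10-fold. The SD between spots came from probes on at least 10 spots and was 0.193 (log2) for 1 spot at log2 signals of 6 to 8 and 0.057 above 14. The error of a difference combined the SDs of its 2 arrays. Bounds used the lowest signal well above background. The number of arrays, 1 per group, limits the precision, and no test was made. Slide and scan were the same for all arrays. The upper rows in the text are the first 33.7% of the array by gene probes, and the lower rows are the rest.

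Named were the 7 genes and, of each of 9 other gene lists, the detected members with the 2 highest signals with empty vector and those with the largest difference from empty vector. Wfdc12, Wfikkn1, Spint2, Sort1, Plscr4, Parp14, S100a8, S100a10 and the other members given beyond this rule were named after their values were seen. Tpsab1, Ly6g and Mx1 had no matched probe. A listed gene that this rule names is not reported here. The members and lists were chosen with earlier results of these data known. Alternatives were no scaling, scaling to detected probes (75th percentile or median) or to 7 spike-in probes, normexp with an offset of 50 (limma 3.58.1), the mean of detected probes, the series table, the lower rows alone, no signal minimum and genes well above background on both arrays. Other steps used Python 3.11.15, numpy 2.4.6, pandas 2.3.3 and scipy 1.17.1, and were tested on simulated data. Promoter windows were those of RefSeq (GRCm38.p6). Probe and protein sequences were not used here.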

Additional observations from a re-analysis of the deposited data

How the results depend on the processing

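The lower Slpi and Plscr1 and the higher Elane with Mst1r vector, and the higher Wfdc2 with both vectors, kept their direction under each alternative that gave a value. Slpi moved by more than the spread between spots with Mst1r vector against empty vector to -0.75 without scaling and -0.25 with the mean of detected probes, against Slpi vector to -0.80 and -0.20, and between Slpi vector and empty vector to -0.10 with spike-in scaling and -0.052 with the mean of detected probes. The sign also changed between alternatives for Grn and Anxa2 in all 3 comparisons and for Plscr1 between Slpi vector and empty vector, all near 0. Of the other member differences 88 moved by less than that spread and 26 by more. The 88 include values that an alternative could not move. These were the values from the series table, those of genes with a single probe under the mean of detected probes, and those of Elane and Plscr1 in the lower rows alone. Members at least 1.5-fold apart with Mst1r vector numbered 3 without scaling (Plscr1, Slpi and Wfdc2), 2 with spike-in scaling (Slpi and Wfdc2) and 0 in the lower rows, where Wfdc2 has no probe. With Slpi vector they numbered 0 with spike-in scaling, 0 in the lower rows and 2 without the signal minimum (Ctsg and Wfdc2). Between Mst1r vector and Slpi vector they numbered 0 with the mean of detected probes and 2 without the minimum (Ctsg and Slpi), and spike-in scaling gave 1, Elane in place of Slpi. Among all genes, the counts at 1.5-fold were 1089, 584 and 1066 as reported. With Mst1r vector they became 724 with the mean of detected probes, 430 in the lower rows and 3537 without the minimum. With Slpi vector they became 225, 72 and 2926, and 331 for genes well above background on both arrays. Between the vectors they became 693 with normexp, 437 in the lower rows and 3418 without the minimum. The cause was not tested, other than that fewer genes remain in the lower rows and more without the minimum. Without scaling the median of all genes shifted by -0.23 for Mst1r and -0.08 for Slpi vector, and by -0.10 and -0.23 under spike-in scaling. Signals near background limit Ctsg, Wfdc2 and the dim Slpi probe. No paired analysis was possible because each group held 1 array.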
